A study of Mus musculus with 6 samples.

Results

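The 33 genes described here mark blood and lymphatic endothelium, the cells that line vessels. They were chosen by name, 28 for blood vessels and 5 for lymphatic vessels, out of 34989 genes counted in embryonic mouse handpads. All 33 were found in the transcript tables and all 33 passed the filter on low counts. The handpad is the paddle from which the digits separate, and it was taken at stage E14.5 from C57BL/6 mice. The labels give 3 wild-type samples, which the series' design text calls control embryos, and 3 samples of genotype Grhl3KO, lacking the transcription factor Grhl3 of surface epithelium. No allele, agent or treatment other than the Grhl3 knockout is named, and both groups share strain, tissue and stage. The labels do not say whether a sample is 1 embryo or a pool, so p-values reflect only how these 6 samples vary, and part of that variation may be technical.

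Endothelial cells grow in response to vascular endothelial growth factors (VEGFs), which bind the receptor kinases Flt1, Kdr and Flt4, and are stabilised by angiopoietins acting on Tek. Cdh5 and Pecam1 hold the cells to each other, and transcription factors of the ETS and SOX families set their identity. Lymphatic endothelium buds from veins under the control of Prox1 and depends on Flt4, the receptor for Vegfc. In the limb paddle, vessels form a network that is remodelled as the digits appear.

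The start regions of 3 regulators of these vessels are shown because they are the genes to which the comparisons below return. Flt1 is a VEGF receptor of blood vessels, Tek the angiopoietin receptor, and Prox1 the switch to lymphatic identity. Each sequence holds the 250 bases before the RefSeq gene start (GRCm38.p6), 5′ to 3′ on the gene's strand, and lies outside the annotated gene. Flt1 was read from chr5:147726012-147726261 (minus strand), Tek from chr4:94739039-94739288 (plus strand) and Prox1 from chr1:190170828-190171077 (minus strand). Capitals mark GGAAG or its reverse complement CTTCC, a core that ETS factors bind, and the Tek window holds no match.
Flt1: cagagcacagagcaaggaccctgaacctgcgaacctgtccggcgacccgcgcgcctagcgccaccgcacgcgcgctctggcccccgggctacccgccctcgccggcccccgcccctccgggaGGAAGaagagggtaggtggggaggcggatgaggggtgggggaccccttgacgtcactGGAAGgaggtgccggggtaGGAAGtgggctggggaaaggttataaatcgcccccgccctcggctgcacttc
Tek: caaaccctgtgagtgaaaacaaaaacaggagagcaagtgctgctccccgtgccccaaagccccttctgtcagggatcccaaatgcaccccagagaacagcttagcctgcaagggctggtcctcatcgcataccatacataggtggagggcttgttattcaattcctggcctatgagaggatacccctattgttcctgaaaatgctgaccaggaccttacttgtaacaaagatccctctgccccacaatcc
Prox1: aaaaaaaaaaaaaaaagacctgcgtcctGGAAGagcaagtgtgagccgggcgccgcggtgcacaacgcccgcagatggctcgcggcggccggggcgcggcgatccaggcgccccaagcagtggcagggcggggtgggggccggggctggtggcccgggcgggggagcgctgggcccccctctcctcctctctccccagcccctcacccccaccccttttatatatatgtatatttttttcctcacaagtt
Of the 33 genes, 18 had at least 1 such window, 24 windows in all, and matches were sought on both strands. GGAAG was found in 68.4% of the 19 blood windows and in 4 of the 5 lymphatic windows, against 64.1% of 32851 windows of all genes. The longer form CCGGAAG, which contains GGAAG, was in 0 of the 24 windows (6.91% of all windows). The grainyhead-type motif AACCGGTT, which reads the same on both strands, was also in 0 of the 24 (0.116% of all windows). These are matches of letters, and none is shown to be a binding site.

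The libraries held 38052692 to 56037639 estimated counts. Counts are given below as CPM, counts scaled to library size, with sizes adjusted by the trimmed mean of M-values (TMM). Grhl3 itself measured 14.3, 45.7 and 18.5 CPM in the wild-type and 3.11, 2.86 and 2.95 CPM in the knockout libraries, at a log2 fold change of -3.14 with SE 0.41 (edgeR adjusted p = 0.0221). Wild-type replicate 1 stood apart, with 9.03% of its counts in ribosomal protein genes against 5.74% to 7.85% elsewhere. The summed level of 4 Y-linked genes, scaled to plain library totals without TMM, was 289.6 and 341 CPM in wild-type replicates 2 and 3. It was 5.36 CPM in wild-type replicate 1 and 3.39 to 4.42 CPM in the knockout libraries. Y-linked expression thus differs between the groups, and values without these libraries are given where they matter. The handpad markers Hoxa13, Hoxd13 and Prrx1 were present in every library, at 51 CPM or more.

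Markers of both vessel types were expressed in every library. On the TPM scale, which corrects for transcript length and so allows genes to be compared, the most abundant member was Egfl7, a secreted protein of endothelial cells, at 73.3 to 99.98 TPM. Ramp2, the partner of the adrenomedullin receptor, followed at 62.4 to 74.3 TPM, and Cd34, a sialomucin of endothelial and blood progenitor cells, at 49.4 to 62.3 TPM. Below these came a group of junction and surface genes whose TPM ranges overlapped, so that their order is not resolved. It comprised Pecam1 (23.6 to 32.3 TPM), Cdh5 (22.4 to 31.5 TPM), Esam (21.2 to 33.6 TPM) and the sialomucin Emcn (24.4 to 32.6 TPM). The lymphatic genes were scarcer than these. Highest of the 5 was Pdpn, a mucin-like protein that keratinocytes and other cells also make, at 11.6 to 17 TPM. Mmrn1 (1.78 to 4.45 TPM), Flt4 (2.41 to 3.48 TPM) and the hyaluronan receptor Lyve1 (1.5 to 4.34 TPM) overlapped one another. Prox1 was lowest of the 5, at 0.846 to 1.55 TPM, a range that met only the low end of the Lyve1 range. Some blood genes were at similar levels, with means of 2.63 TPM for Nos3, 2.08 TPM for Tal1 and 1.52 TPM for Esm1.

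Erg, an ETS factor of endothelium, was the lowest member, at 0.349 to 1.71 TPM. All of its signal lay on transcript Erg-204, while the other 4 Erg transcripts listed in the tables were at 0 in all 6 libraries. Of 8 annotated Erg transcripts, 5 are listed, so the values describe those transcripts rather than the whole gene. Every annotated transcript of the other 32 members is listed.

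**Figure D1:**
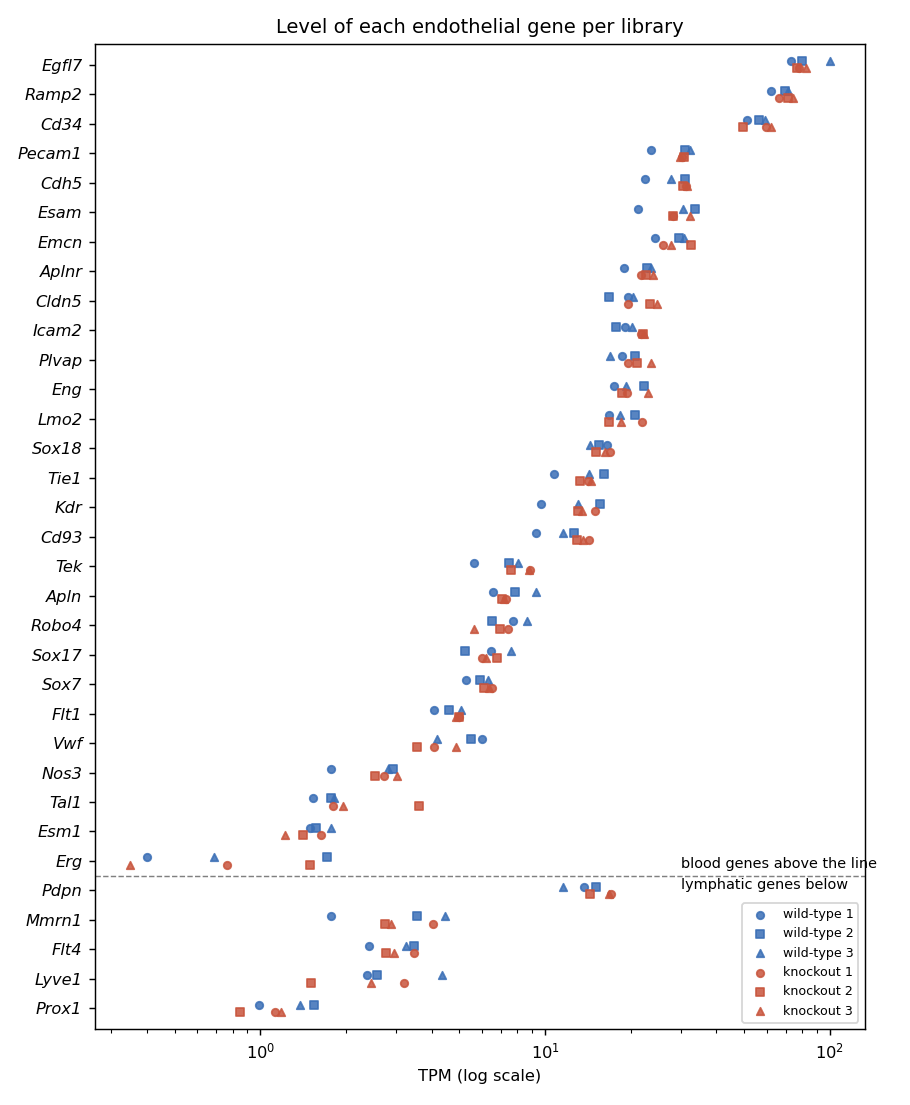
TPM (log axis) of each of the 33 genes in the 3 wild-type libraries (blue) and the 3 knockout libraries (red), 1 point per library, blood genes above the dashed line and lymphatic genes below it. Egfl7, Ramp2 and Cd34 lie highest, Prox1 and Erg lowest, and wild-type replicate 1 is the lowest of the 6 libraries for 20 of the 33 genes.

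Summed over the list, blood endothelial expression was similar in both genotypes relative to its spread. The 28 blood genes together measured 482, 563 and 579.7 TPM in the wild-type libraries and 556, 551 and 584 TPM in the knockout libraries. The groups overlapped, with means of 542 ± 52.1 and 564 ± 18 TPM (SD, n = 3 per group). Wild-type replicate 1 was the lowest library, and the other 5 lay between 551 and 584 TPM. The 5 lymphatic genes measured 21.2, 26.3 and 25 TPM in wild-type and 28.8, 22.2 and 26.3 TPM in knockout libraries. Those groups overlapped too, at 24.2 ± 2.65 and 25.8 ± 3.35 TPM (SD, n = 3). The lymphatic sum was 4.4%, 4.67% and 4.32% of the blood sum in wild-type and 5.18%, 4.03% and 4.5% in knockout libraries. In whole tissue, fewer cells of a type and less RNA per cell cannot be told apart. Without Egfl7, its highest member, the knockout minus wild-type difference in the blood sum was 27.3 TPM, against 22 TPM with it. Without Pdpn the lymphatic difference was -0.989 TPM, against 1.59 TPM with it.

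**Figure D2:**
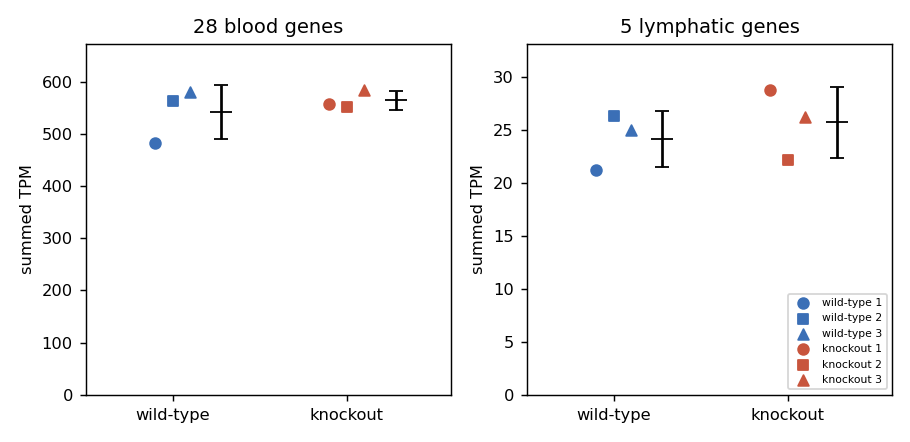
Summed TPM of the 28 blood genes (left) and the 5 lymphatic genes (right) per library, with the mean and SD of each genotype (n = 3) beside the points; both axes start at 0. The genotypes overlap in both panels, and wild-type replicate 1 is the lowest blood value at 482 TPM.

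Gene by gene, edgeR called no member between the genotypes, but most blood genes had slightly higher CPM in the knockout. Of the 28 blood genes, 0 were called with the quasi-likelihood test of edgeR at a false discovery rate (FDR) under 0.05, against 0.431% of the 16938 genes tested (0.348% higher and 0.0827% lower). With DESeq2, 1 was called (Cd93), against 1.77% of all genes with that tool. At an unadjusted p under 0.05, 5 blood genes were higher and 0 lower, against 7.22% of all genes, 3.81% higher and 3.41% lower. That count of 5 was 3 with effective length offsets (3.64% of all genes higher) and 0 with limma on log2(TPM + 0.5) (2.36% of all genes higher). Log2 fold changes were positive for 22 of the 28 and ran from -0.11 to 0.52, with a median of 0.17 (median of all genes -0.0045). Of all genes tested, 51.2% had a negative log2 fold change. CPM of the groups did not overlap for 10 blood genes, all higher in the knockout, which is 35.7% of them against 6.74% of all genes in that direction and 6.18% in the other. On the TPM scale, only Icam2 and Cd93 did not overlap, both higher, against 3.56% of all genes higher and 6.45% lower. Of the 10 genes apart by CPM, only Cd93 was also apart by TPM. The median was 0.06 on the log2(TPM + 0.5) scale with limma, where that of all genes was -0.06. In simulated data for this comparison and these 16938 genes, the edgeR test recovered 22% of genes changed 1.5-fold and 63.3% of those changed 2-fold.

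**Figure D3:**
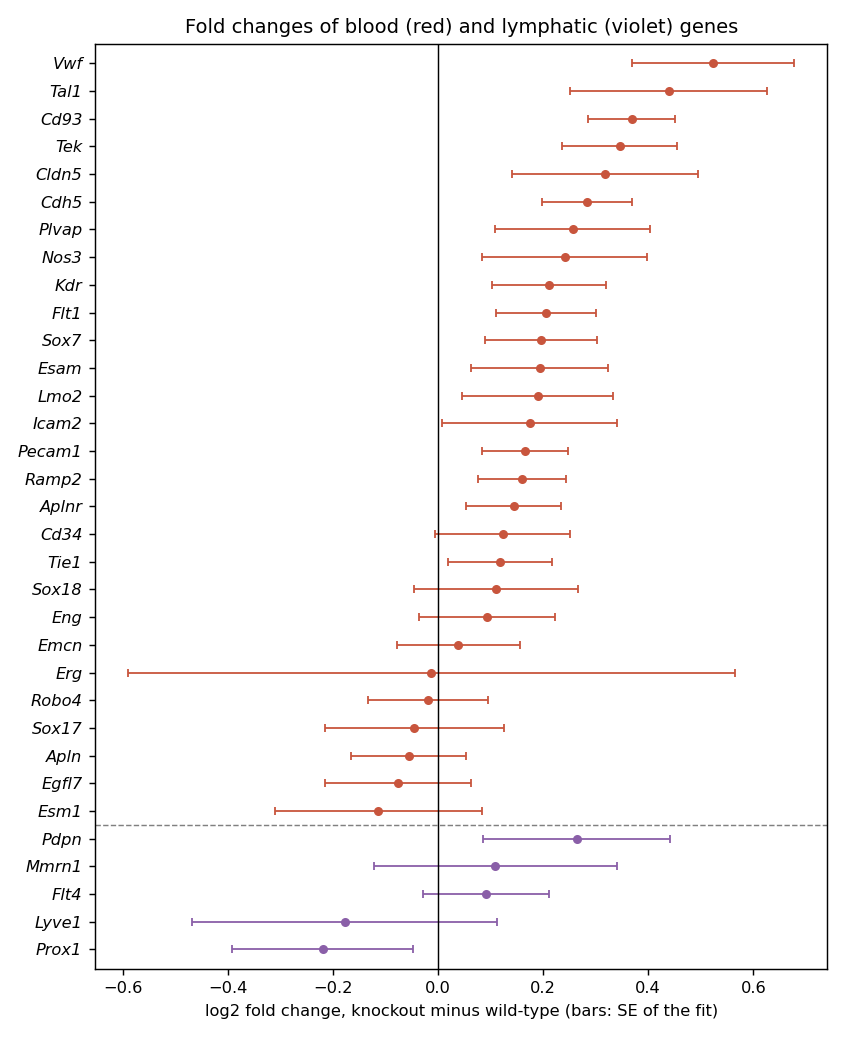
Log2 fold change (knockout minus wild-type) of each blood gene (red) and lymphatic gene (violet) with the SE of the edgeR fit, ordered by size within each list. Vwf is highest at 0.52 and Prox1 lowest at -0.22; none was called at an FDR under 0.05.

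Among the surface proteins and junction genes of blood endothelium, Cd93 had the smallest p. Cd93, a C-type lectin-like receptor of endothelial and some myeloid cells, measured 64.7, 69.3 and 64.3 CPM in the wild-type and 86.6, 80.8 and 88.5 CPM in the knockout libraries. All knockout values lay above all wild-type values, by CPM and by TPM. Its log2 fold change was 0.37 (SE 0.08, adjusted p = 0.171, edgeR; adjusted p = 0.0188 with DESeq2). The other alternatives gave Cd93 adjusted p-values from 0.0707 (edgeR likelihood ratio test) up to 0.988 (limma on TPM). Cdh5, the VE-cadherin of adherens junctions, measured 89.2, 97.5 and 88.3 CPM in wild-type and 109, 108 and 117 CPM in knockout libraries. The CPM groups were apart, but the 31.1 TPM of wild-type replicate 2 fell between the knockout extremes of 30.4 and 31.5 TPM. The log2 fold change of Cdh5 was 0.28 (SE 0.09, adjusted p = 0.386, edgeR). Pecam1, an adhesion molecule of endothelial borders, measured 72.8, 76.3 and 81.4 CPM in wild-type and 83.3, 87.4 and 87.7 CPM in knockout libraries. Its groups did not overlap, at a log2 fold change of 0.17 with SE 0.08 (edgeR adjusted p = 0.771). The claudin Cldn5 of endothelial tight junctions (log2 fold change 0.32), the junction protein Esam (0.19), the adhesion ligand Icam2 (0.17) and Plvap, which forms the diaphragms of fenestrae (0.26), overlapped between the genotypes in CPM. So did Emcn (0.04) and Cd34 (0.12).

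The receptor kinases were each slightly higher in the knockout means. Tek, the angiopoietin receptor whose start region is shown above, measured 25.5, 26.9 and 29.1 CPM in wild-type and 35.6, 30.7 and 37.3 CPM in knockout libraries. The groups were apart, at a log2 fold change of 0.35 and SE 0.11 (adjusted p = 0.417 in edgeR). Flt1, a VEGF receptor that also acts as a decoy, measured 27.9, 24.8 and 26.8 CPM in wild-type and 29.3, 30.8 and 31.6 CPM in knockout libraries. Its groups were apart by a narrow margin, at a log2 fold change of 0.21 with SE 0.1 (edgeR adjusted p = 0.717). Nearly all Flt1 signal came from 2 coding transcripts, Flt1-202 at 2.27 to 2.91 TPM and Flt1-203 at 1.76 to 2.12 TPM. Flt1-202 was at 2.27, 2.73 and 2.68 TPM in wild-type and 2.84, 2.85 and 2.91 TPM in knockout libraries, without overlap, while Flt1-203 overlapped. Kdr, the main signalling receptor for Vegfa, measured 59.1, 75.4 and 64 CPM in wild-type and 80.5, 71.8 and 77.4 CPM in knockout libraries. Wild-type replicate 2 fell among the knockout values, and the log2 fold change was 0.21 with SE 0.11 (edgeR adjusted p = 0.785). Tie1, the partner receptor of Tek, overlapped as well, at a log2 fold change of 0.12.

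Of the peptide and guidance genes, none was called. Aplnr, the apelin receptor of venous and sprouting endothelium, measured 69.4, 65.6 and 69 CPM in wild-type and 69.6, 73.8 and 82.1 CPM in knockout libraries. The groups touched almost end to end, at a log2 fold change of 0.14 and SE 0.09 (adjusted p = 0.861 in edgeR). Its ligand Apln, which marks tip cells, ran from 18.8 to 22.5 CPM in wild-type and from 19.2 to 20.5 CPM in knockout libraries, at a log2 fold change of -0.06. Ramp2 went from 47.4, 50.7 and 52.3 CPM to 55.3, 55.4 and 57.3 CPM, without overlap, at a log2 fold change of 0.16 with SE 0.08 (edgeR adjusted p = 0.785). Esm1, another tip cell gene (-0.11), Robo4, a receptor of stable vessels (-0.02), Egfl7 (-0.08), the TGF-beta co-receptor Eng (0.09) and the nitric oxide synthase Nos3 (0.24) overlapped, with log2 fold changes as given.

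None of the transcription factors of endothelium was called. Of the SOXF factors, Sox7 measured 16.9, 14.9 and 16.1 CPM in wild-type and 18.3, 17.5 and 19.1 CPM in knockout libraries, without overlap (log2 fold change 0.20, SE 0.11). Sox17, known from arteries, and Sox18, known from early lymphatic fate, overlapped, at log2 fold changes of -0.04 (SE 0.17) and 0.11 (SE 0.16). Erg had a log2 fold change of -0.01 (SE 0.58), too imprecise at its low count to give a direction. Tal1, a factor of blood stem cells, red cells and mast cells as well as of early endothelium, measured 6, 5.58 and 5.97 CPM in wild-type and 6.23, 9.86 and 7.7 CPM in knockout libraries. Knockout replicate 2 was highest, and without it the log2 fold change was 0.25, against 0.44 (SE 0.19, adjusted p = 0.679, edgeR) with it. Slc4a1, the anion exchanger of red cells (named after its values were seen), was also highest in that library, at 46.1 CPM against 9.83 to 25.1 CPM elsewhere. All 13 erythroid genes had positive log2 fold changes with 0 called by edgeR. Of them 3 were higher at an unadjusted edgeR p under 0.05 (3.81% of all genes). DESeq2 called 1 of the 13 (1.77% of all genes). The summed erythroid level was 25770, 40480 and 24950 TPM in wild-type and 26390, 35420 and 42700 TPM in knockout libraries. Unlike Slc4a1 and Tal1, this sum was not highest in knockout replicate 2. The part of erythroid cells in the Tal1 values was not tested. Of 7 mast cell genes 6 were tested and 0 were called by edgeR or DESeq2. At an unadjusted edgeR p under 0.05, 2 mast cell genes were higher (3.81% of all genes). Their summed level was 112.3 to 118.1 TPM in wild-type and 90.9 to 204.9 TPM in knockout libraries. Lmo2, the partner of Tal1 (0.19), overlapped between the genotypes.

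Vwf, the clotting factor of endothelium and platelets, had the largest log2 fold change of the list but turned direction once transcript length was taken into account. By CPM it measured 12.8, 12.8 and 12.2 in wild-type and 19.5, 14.1 and 20.7 in knockout libraries, without overlap (log2 fold change 0.52, SE 0.15, adjusted p = 0.369, edgeR). By TPM it measured 6.03, 5.5 and 4.17 in wild-type and 4.07, 3.56 and 4.86 in knockout libraries. With effective length offsets the log2 fold change of Vwf was -0.28, and with limma on log2(TPM + 0.5) it was -0.29. The listed transcripts, named after their values were seen, differed in how reads were divided among them. The short noncoding transcript Vwf-209, of 456 bases, was at 1.97, 1.69 and 1.05 TPM in wild-type and listed at 0 in all 3 knockout libraries. The coding transcript Vwf-203, of 8834 bases, was at 0.457, 1.18 and 1.12 TPM in wild-type and at 1.81, 1.12 and 1.47 TPM in knockout libraries. The Vwf transcript with the highest mean TPM was Vwf-210, of 2686 bases, and it overlapped between the genotypes. It was at 3.15, 1.61 and 1.59 TPM in wild-type and at 1.80, 1.78 and 3.03 TPM in knockout libraries. Of the platelet markers, Pf4 was at 2.23 to 4.52 CPM in wild-type and 2.53 to 3.97 CPM in knockout, and Itga2b at 5.16 to 6.16 and 5.01 to 8.24 CPM. The platelet list of 11 genes had 10 tested and 0 called by edgeR or DESeq2. At an unadjusted edgeR p under 0.05, 1 platelet gene was higher (3.81% of all genes). The summed platelet level was 29.5 to 34.9 TPM in wild-type and 27.9 to 36.4 TPM in knockout libraries. Its part in the Vwf values was not tested. The reads of Egfl7 were also divided differently among its transcripts, named after their values were seen. Its coding transcript Egfl7-203 was at 7.76 and 7.91 TPM in wild-type replicates 2 and 3 and at 0 in all other libraries. The noncoding Egfl7-217, of 491 bases, was listed at 0 in wild-type replicates 2 and 3. It was at 6.59 TPM in wild-type replicate 1 and at 15.9 to 19.3 TPM in the knockout libraries, without overlap between the genotypes.

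The lymphatic genes showed no shared direction. Of the 5, 0 were called with edgeR or DESeq2, 0 had an unadjusted p under 0.05, and in all 5 the groups overlapped. Prox1 measured 8.21, 10.2 and 9.01 CPM in wild-type and 8.04, 6.32 and 9.17 CPM in knockout libraries. Wild-type replicates 1 and 3 fell among the knockout values, and the log2 fold change was -0.22 with SE 0.17 (edgeR adjusted p = 0.926). Flt4, the receptor for Vegfc, measured 15.6, 17.7 and 16.9 CPM in wild-type and 19.7, 16 and 17.7 CPM in knockout libraries, at a log2 fold change of 0.09 and SE 0.12 (adjusted p = 0.975 in edgeR). Its groups overlapped almost fully. Lyve1, which some tissue macrophages also carry, measured 6.52, 4.96 and 8.02 CPM in wild-type and 7.39, 3.5 and 6.33 CPM in knockout libraries. Knockout replicate 2 was lowest, and without it the log2 fold change was 0.08, against -0.18 (SE 0.29) with it.

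Macrophage genes also varied between libraries. Mrc1, a mannose receptor of tissue macrophages (named after its values were seen), was at 24.7 CPM in knockout replicate 2 and at 30.5 to 52.5 CPM elsewhere. Of 14 macrophage genes 13 were tested and 0 called by edgeR or DESeq2, 0 at an unadjusted p under 0.05, with Csf1r at 24.8 to 41.2 CPM and Adgre1 at 9.08 to 15 CPM over all libraries. The summed macrophage level was 211.4, 211.1 and 181.2 TPM in wild-type and 239.6, 179.9 and 213 TPM in knockout libraries. The mean log2 CPM of the tested macrophage genes was lowest in wild-type replicate 3 (3.446), where Lyve1 was highest. In knockout replicate 2, where Lyve1 was lowest, this mean was 3.532. The part of macrophages in the Lyve1 values was not tested. Mmrn1, a matrix protein of lymphatic endothelium and platelets, measured 7.74, 11.4 and 14.6 CPM in wild-type and 14.47, 10.5 and 11.4 CPM in knockout libraries. Wild-type replicate 1 was lowest, and without it the log2 fold change was -0.10, against 0.11 (SE 0.23) with it. Without knockout replicate 1 the Mmrn1 value was -0.0379. Pdpn measured 20.7, 17 and 13.4 CPM in wild-type and 19.8, 17.7 and 23.9 CPM in knockout libraries, overlapping at a log2 fold change of 0.26 (SE 0.18). Epithelial genes, whose cells can also make Pdpn, were at a summed 906 to 1772 TPM in wild-type and 1735 to 2441 TPM in knockout libraries. In that list DESeq2 called 6 of 10 (1.77% of all genes) and edgeR 1 of 10 (0.431% of all genes). This gene, Cldn7, a claudin of surface epithelium, rose from 2.45 to 3.41 CPM in wild-type to 6.31 to 7.98 CPM in knockout libraries (adjusted p = 0.0337, edgeR), and the part of the epithelial list in the Pdpn values was not tested.

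The remaining genes of the vascular pathways were tested gene by gene and are described by list, without a test of any list. In each of these lists edgeR called 0 genes. Of 7 VEGF ligands and co-receptors, 0 were called, and the median log2 fold change was -0.04. Vegfa, the main growth signal for blood vessels, measured 121, 107 and 137 CPM in wild-type and 94.6, 112 and 90.3 CPM in knockout libraries. Knockout replicate 2 lay within the wild-type range, and the log2 fold change was -0.30 with SE 0.12 (edgeR adjusted p = 0.658). Vegfb (-0.09), the lymphatic growth factors Vegfc (-0.04) and Vegfd (0.08), Pgf (-0.06) and the co-receptors Nrp1 (0.28) and Nrp2 (0.00) overlapped between the genotypes. In the angiopoietin pathway 4 of 5 genes were tested and 0 called. Angpt1, the activating ligand of Tek made by cells around vessels, had a log2 fold change of -0.05 (SE 0.17), and Angpt2, the context-dependent ligand made by endothelium, 0.28 (SE 0.17). Of the others, the phosphatase Ptprb, which acts on Tek, was higher without overlap (0.27, SE 0.13), the matrix protein Svep1 overlapped (0.25), and Angpt4 was below the filter. Of the 5 partners of apelin and adrenomedullin 0 were called, with a median of 0.03, and the adrenomedullin receptor Calcrl was at -0.13.

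Most arterial and Notch genes had small positive values, and venous genes lay near 0. Of 13 arterial and Notch genes 0 were called, 5 had an unadjusted p under 0.05, all higher (3.81% of all genes), and 5 did not overlap, all higher (6.74% of all genes), with a median of 0.24. With effective length offsets 2 had such a p and the median was 0.14, and with limma on log2(TPM + 0.5) these were 1 and 0.08. Gja5 and Gja4, the connexins of arteries, had log2 fold changes of 0.43 (SE 0.13, adjusted p = 0.392) and 0.42 (SE 0.18, adjusted p = 0.663, edgeR). Gja5 measured 35.9, 27.7 and 32.4 CPM in wild-type and 42.1, 38.3 and 49.2 CPM in knockout libraries. The tip cell ligand Dll4 (0.04) and the arterial ephrin Efnb2 (0.04) overlapped. Notch1, named after its values were seen, had the largest value of this list at 0.68 (SE 0.18, adjusted p = 0.287, edgeR), and surface epithelium also expresses it. With DESeq2, which called 1.77% of all genes, 1 gene of the arterial list was called. It called 0 of the VEGF, angiopoietin, apelin, venous, further endothelial and further lymphatic lists. At an unadjusted p under 0.05 edgeR had Vegfa and 1 further endothelial gene lower (3.41% of all genes). It had 0 genes of the angiopoietin, apelin, venous and further lymphatic lists at that threshold. Of 6 venous genes 4 were tested and 0 called, among them Nr2f2 (-0.11), Ephb4 (0.06) and Ackr1 (-0.05). Of 30 further endothelial genes 29 were tested, 0 were called, 12 had negative log2 fold changes and the median was 0.03. For 17 further lymphatic genes the numbers were 16 tested and 0 called, with a median of 0.02, and Reln was at 0.34 (SE 0.20). Ccl21a matched 2 gene records and is given no value.

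Cells around vessels and in the blood differed in how their lists lay. Of 14 mural genes, which mark pericytes and smooth muscle, 13 were tested and 0 called by edgeR, with a median of 0.18. At an unadjusted edgeR p under 0.05, 4 were higher and 0 lower (3.81% and 3.41% of all genes). DESeq2 called 3 mural genes (1.77% of all genes). The pericyte genes Pdgfrb (0.15), Rgs5 (0.09) and Cspg4 (-0.24) overlapped between the genotypes. Other mural genes, named after their values were seen, were higher in the authors' deposited table. There Acta2, Anpep, Myh11 and Ndufa4l2 had log2 fold changes of 0.83, 0.40, 0.96 and 1.10. Their adjusted p-values in that table (likelihood ratio) were 0.0965, 0.606, 0.00813 and 0.0203. Of the 13 mural genes tested here, 2 had negative log2 fold changes, and the list ran from -0.24 to 1.10. The summed mural level was 215 to 245 TPM in wild-type and 253 to 326 TPM in knockout libraries, without overlap, and its part in the blood endothelial values was not tested. Among red cell genes Hbb-bs (0.27) and Hba-a1 (0.29) overlapped. The authors' deposited table of the comparison, which lists 941 genes, contains 4 of the 33 members, Cd93, Cdh5, Tek and Vwf. In the authors' deposited table their log2 fold changes are 0.37, 0.28, 0.34 and 0.52, with adjusted p-values of 0.0601, 0.335, 0.429 and 0.239 from that table. Among the genes of all lists used here that it contains, the largest unadjusted p (likelihood ratio) is 0.0496. Absence of the other members may thus reflect a cut on p, which is not stated.

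**Figure D4:**
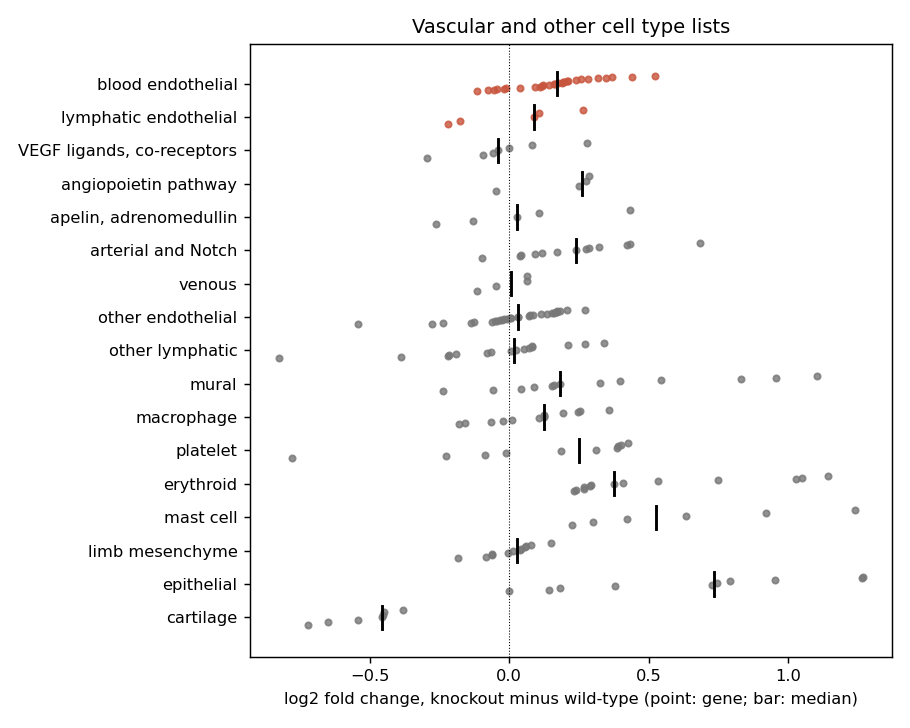
Log2 fold change (knockout minus wild-type) of every tested gene of the 2 endothelial lists (red) and of 15 other lists (grey), 1 point per gene, with a black bar at each list's median. The blood list has its median at 0.17 and the lymphatic list at 0.09, while the 29 further endothelial genes have theirs at 0.03.

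The blood median moved with the libraries compared. Leaving out any 1 library, it ran from 0.14 to 0.19, the higher end without wild-type replicate 1. In that fit 11 of 28 blood genes were higher at an unadjusted p under 0.05, against 9.71% of all genes. There 0 of the 28 were called, against 1.2% of all genes, and Y-linked expression and genotype cannot be told apart there. With a Y-linked term in the fit 0 of the 28 were called, against 0.449% of all genes. Comparing wild-type replicate 1 alone with the 3 knockout libraries, all low in Y-linked expression, the median was 0.08 and 11 of 28 log2 fold changes were negative, against 6 of 28 with all libraries. That comparison has 1 wild-type library, which is assumed to vary like the knockout libraries. Within it Cd93, Cdh5 and Tek had log2 fold changes of 0.41, 0.33 and 0.44, and Sox18 had -0.20. Members with short main transcripts stood high in wild-type replicate 1. Of the 33, 18 had their highest wild-type CPM there, with a median main transcript of 1926 bases, and 10 had their lowest there, with a median of 4305 bases. Cldn5 (22, 14.48 and 17.9 CPM) and Sox18 (22.3, 16.2 and 15.2 CPM in wild-type replicates 1 to 3) show the first pattern, and Kdr the second. The part of transcript length in these values was not tested. With effective length offsets the blood median was 0.13.

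The members also differed in how steady they were. Over all 6 libraries the coefficient of variation of CPM was smallest for Apln and Robo4, at 6.66% each, Ramp2 (6.88%) and Pecam1 (7.37%). It was largest for Erg (59%), Lyve1 (27%), Vwf (24.4%), Tal1 (23.6%) and Mmrn1 (22.1%).

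**Figure D5:**
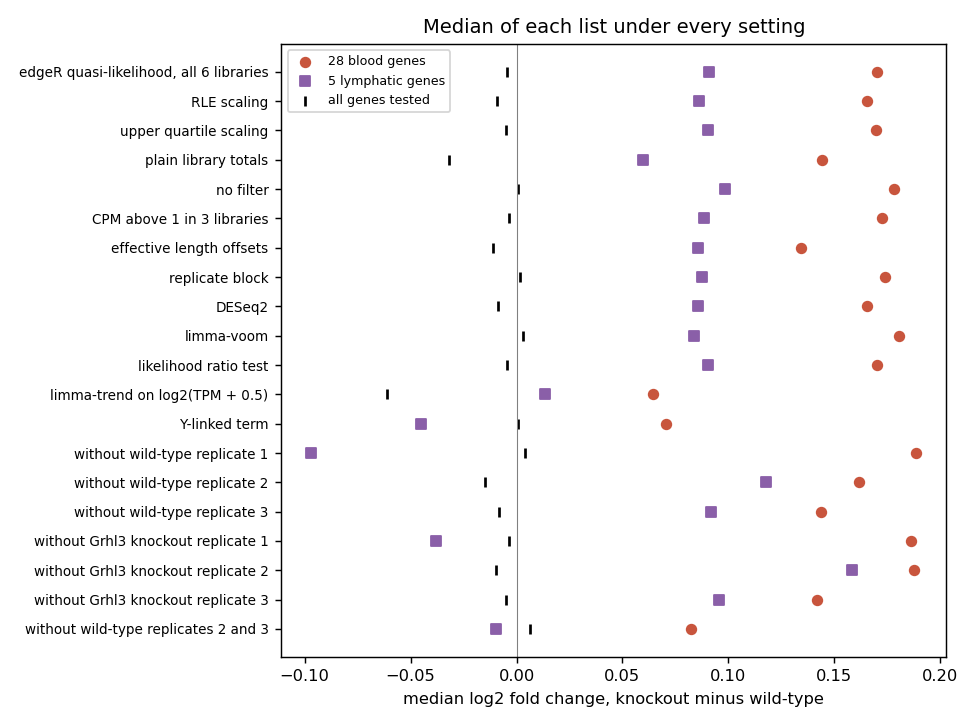
Median log2 fold change of the 28 blood genes (red circles), the 5 lymphatic genes (violet squares) and all genes tested (black ticks) under each setting of the analysis. The blood median stays between 0.06 and 0.19, while the lymphatic median runs from -0.10 to 0.16 and changes sign.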

How the data were processed

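RNA of 6 handpad samples was sequenced after library preparation with a stranded Illumina mRNA kit, per the labels' protocols. FastQC, kallisto and genome build mm10 are named in the submitters' processing notes; which kallisto version and transcripts were used is not given in the sources used here. The authors deposited, per the file headers, for each of 111462 transcripts its length in bases, its estimated count, not normalized, and its TPM. The authors' deposited table holds, per the file headers, log2 fold changes and log2 CPM beside a p-value, an FDR and a score (a likelihood ratio) for each gene; the score was not used.

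Transcripts were matched to GENCODE M21 by unversioned identifier, and 110203 matched. The unmatched 1259 held 0.504% to 0.566% of a library's counts and were left out. Estimated counts were summed per gene and rounded for the tests, and TPM was summed per gene. Reads shared between similar isoforms are divided by kallisto, so transcript values are uncertain. Per-gene sums ignore transcript length, so a gene's CPM can move when its reads shift between short and long transcripts.

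Groups were compared with the edgeR 4.0.16 quasi-likelihood test in R 4.3.3 with genotype as the only term, after TMM scaling and filterByExpr (minimum count 10, minimum total 15), on 16938 genes. Adjustment over all of these was by Benjamini-Hochberg, and the SE is the log2 fold change divided by the root of the F statistic. Alternatives used DESeq2 1.42.0 and limma 3.58.1. The script was tested on simulated counts. Floors and intervals were not needed, since no member was at 0 in a library. The 33 members, the other lists and the tests were chosen with earlier results of these data known, so no list was given a test. The genes named are all members, a fixed set from the other lists, and called genes of those lists; others are marked. Part of the fixed set is not reported here.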

Additional observations from a re-analysis of the deposited data

How the results depend on the processing

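Same-numbered samples showed no positive correlation, which with 3 samples per group cannot decide whether they were paired. The correlations of same-numbered deviations from the group means were -0.244, -0.092 and -0.162, and with the replicate block 47 genes were called against 73 without it, with 0 of the 28 blood and 0 of the 5 lymphatic genes among them. The count of called genes was 118 with no filter, 44 with effective length offsets, 299 with DESeq2, 45 with limma-voom, 260 with the likelihood ratio test, 24 with limma on log2(TPM + 0.5), and 10 to 206 when 1 library was left out, lowest without wild-type replicate 3 and highest without wild-type replicate 1. The count of called blood genes was 0 in all of these except DESeq2, where it was 1 (Cd93, log2 fold change 0.36), and that of lymphatic genes was 0 in all of them. The blood median was 0.0645 with limma on TPM, 0.0704 with the Y-linked term, and 0.0822 when wild-type replicates 2 and 3 were left out, a setting chosen after seeing the data. The last 2 of these settings both rest mainly on wild-type replicate 1 and are not separate checks. The lymphatic median was -0.0449 with the Y-linked term and -0.0098 without those libraries, and ran from -0.0968 to 0.158 when 1 library was left out. The causes were not tested.

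Directions of members changed in 35 of 626 combinations of gene and setting. The 2 settings given first both rest mainly on wild-type replicate 1. Under 2 settings, first the Y-linked term and second leaving out wild-type replicates 2 and 3, the log2 fold changes were -0.0304 and -0.0191 for Cd34, -0.0371 and -0.0357 for Emcn, -0.0588 and -0.0469 for Eng, 0.94 and 0.91 for Erg, -0.11 and -0.10 for Icam2, -0.0625 and -0.0397 for Lmo2, -0.24 and -0.20 for Sox18, and -0.0449 and -0.0098 for Pdpn. With effective length offsets Sox17 was at 0.0387 and Vwf at -0.28, with limma on TPM Vwf was at -0.29, and with the likelihood ratio test Erg was at 0.003. Leaving out 1 library gave ranges of -0.11 to 0.0142 for Apln, -0.19 to 0.0094 for Egfl7, -0.0289 to 0.13 for Emcn, -0.0405 to 0.17 for Eng, -0.65 to 0.69 for Erg, -0.11 to 0.0319 for Robo4, -0.18 to 0.0911 for Sox17, -0.40 to 0.0768 for Lyve1 and -0.10 to 0.33 for Mmrn1. Erg was at under 2 CPM in every library.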
